A study of Rattus norvegicus with 6 samples.

Results

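Lysosomal hydrolases, lysosomal membrane proteins and autophagy genes were followed in organoids and flat cultures of the rat mandibular condyle, the cartilage-covered head of the jaw. A total of 35 genes was chosen by symbol from the known parts of these pathways, and all 35 were found among the 17954 genes of the count tables. They comprised 9 glycosaminoglycan-degrading enzymes, 6 cathepsins, 5 genes of other hydrolases and lipid handling, 3 lysosomal membrane proteins, the regulators Tfeb and Tfe3, and 10 autophagy genes. The mRNA sequencing series held 3 libraries of condylar organoids, kept in a chondrogenic medium, and 3 libraries of condylar chondrocytes grown flat (2D culture) in DMEM with 20% fetal bovine serum. The groups differed at once in format and medium, whose effects cannot be told apart. No serum content is given for the organoids, so whether serum also differed is not known. The labels give no strain, age or genotype, do not say from which cells the organoids were grown, and do not state whether the 3 libraries of each group were separate animals or cultures. The p-values therefore rest on a spread between libraries that may be technical only.

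Lysosomes are acidic organelles in which hydrolases take apart proteins, lipids, glycogen and the sugar chains of proteoglycans. Autophagy delivers parts of the cell's own cytoplasm to them: a membrane forms around the cargo, carries proteins of the LC3 and GABARAP families and then fuses with the lysosome. Transcription factors of the MiT/TFE family, among them Tfeb and Tfe3, switch on many lysosomal and autophagy genes through an E-box motif. In cartilage, lysosomal enzymes matter because chondrocytes turn over large amounts of sulfated glycosaminoglycan, and inherited loss of these enzymes causes storage diseases with skeletal malformation.

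Total estimated counts were 18592574 to 25656808 in organoids and 25856486 to 26472447 in 2D culture. Levels are CPM, read counts scaled to a common library size after TMM normalisation, and a change is the log2 fold change of organoid over 2D culture ± SE from edgeR. A gene passed, or was called, where the quasi-likelihood test of edgeR gave an adjusted p below 0.05, with adjustment over all 13052 genes tested. The cartilage collagen Col2a1 stood at 6414 to 78321 CPM in organoids and at 2.91 to 4.89 CPM in 2D culture, and Col9a1 was near 0 in 2D culture (at most 0.398 CPM), while Acan, the large cartilage proteoglycan, stood at 1413 to 1513 CPM there. By these markers the flat cells had little transcript of the cartilage collagens, while the aggrecan transcript was abundant. Sox9, Hapln1 and Comp, called higher in organoids, stood at 51.4 to 55.4, 20.7 to 21.7 and 7.37 to 8.34 CPM in 2D culture. The 6 osteoblast markers (Runx2, Sp7, Bglap, Ibsp, Alpl and Dmp1) were all called higher in organoids, at a sum of 12087 to 20087 CPM, against 259 to 266 CPM in 2D culture. Fractional counts, as estimated counts have where reads are shared between genes, make some members' values uncertain: Becn1, Ctsa and Galns had them in all 6 libraries, Lamp1 and Npc1 in 5, Idua and Sgsh in 4, Glb1 in 3, and Gaa and Map1lc3b in 1.

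Few of these genes passed the test between the groups. Of 34 members tested, 4 rose in organoids, 3 fell and 27 did not pass. Among all genes tested, 27.5% were called, 14.9% higher and 12.6% lower, against 11.8% and 8.82% of the members, so the members were called no more often than genes in general. The groups did not overlap for 18 of the 34 members (52.9%), close to the 53.5% of all genes tested. Of the members 7 were higher and 11 lower in every organoid, against 23.4% and 30.2% of all genes. The median log2 fold change was -0.29 over the members and -0.03 over all genes tested. Scaling to total library size moved the median of all genes by -0.61 and the members' counts to 2 higher and 16 lower, against 8.14% of genes higher and 27% lower in that fit (35.2% in all). In bulk RNA, a difference in the number of cells of a type and a difference in RNA per cell cannot be told apart.

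**Figure D1:**
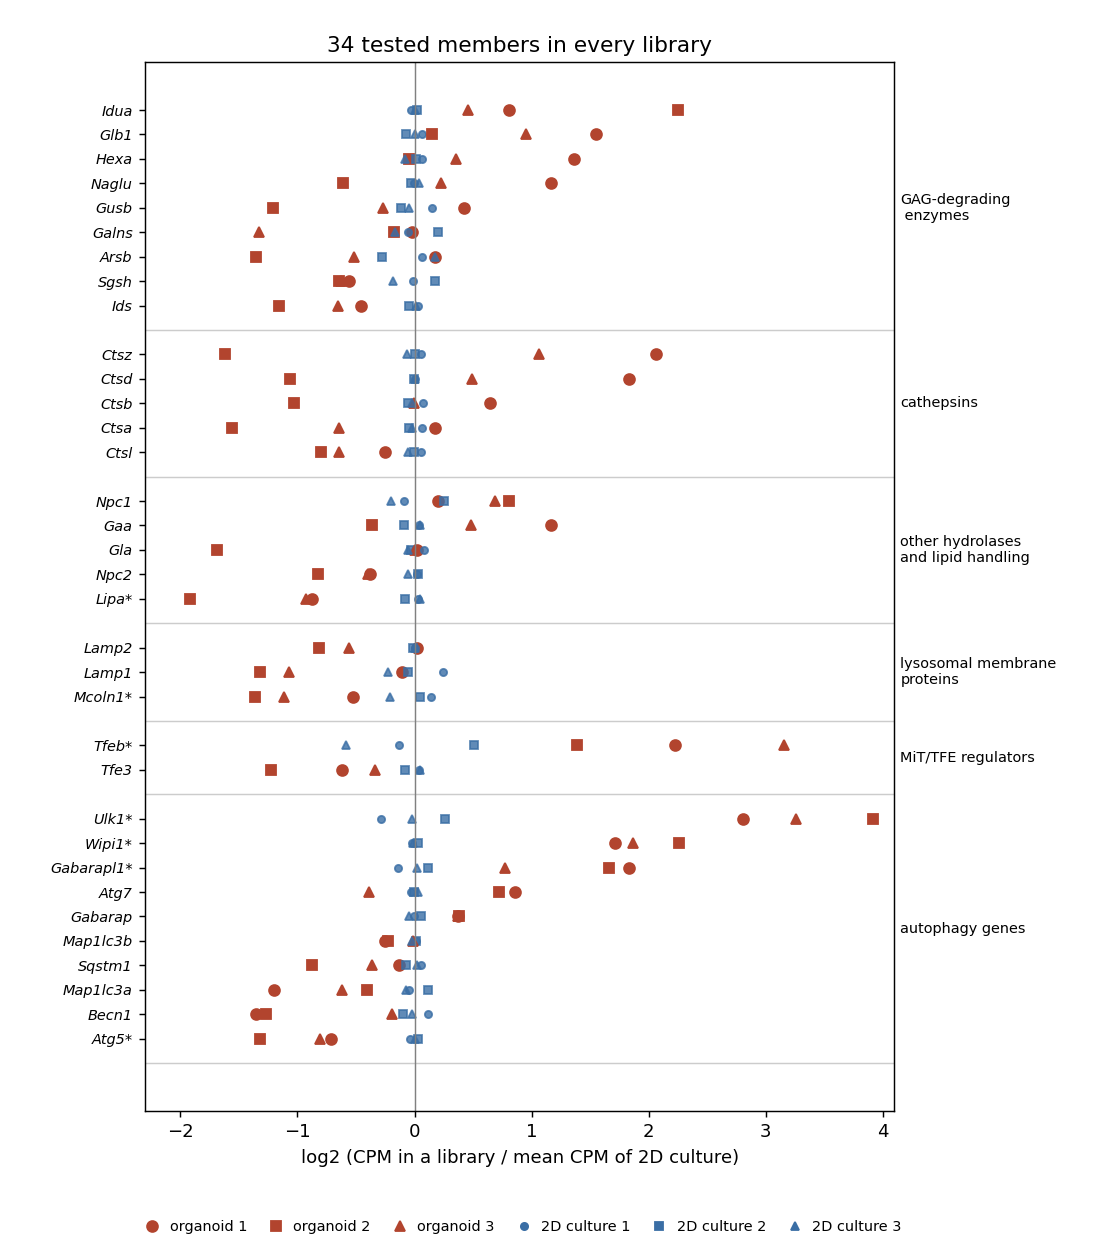
Log2 ratio of the CPM in each library to the mean CPM of 2D culture (x axis) for the 34 tested members, grouped by role (y axis); red symbols are organoids, smaller blue symbols 2D cultures, and an asterisk marks the 7 members that passed the test. Organoid 2 lies left of the other organoids for 23 of the 34 members, while the 2D cultures lie close together.

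The autophagy genes moved apart from each other. Of 10 tested, Ulk1, Wipi1 and Gabarapl1 rose, Atg5 fell and 6 did not pass. Ulk1 encodes the protein kinase that starts autophagosome formation. Its level was 45.4, 97.9 and 62.2 CPM in organoids 1, 2 and 3, against 5.33, 7.76 and 6.38 CPM in 2D cultures 1, 2 and 3. Every organoid lay far above every 2D culture, and the change was 3.40 ± 0.37 (edgeR adjusted p = 0.00163). Wipi1 encodes a protein that binds the lipid mark of the forming membrane. It stood at 243, 355 and 270 CPM in organoids and at 73.3, 75.6 and 73.7 CPM in 2D culture. Here too the groups were far apart, with a change of 1.96 ± 0.22 (edgeR adjusted p = 0.00174). The calls of Ulk1 and Wipi1 held in all 12 alternatives tried, with log2 fold changes of 2.83 to 3.64 and 1.37 to 2.09. Wipi1 overlaps Arsg in the RefSeq gene table, and the strand setting of the counts is not given. Arsg, a lysosomal sulfatase gene, stood at 6.42, 12.1 and 21.96 CPM in organoids, against 2.26 to 3.10 CPM in 2D culture.

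Gabarapl1 encodes a member of the GABARAP family that is attached to the autophagosome membrane. It stood at 111, 98.7 and 53.2 CPM in organoids 1, 2 and 3, and at 28.3, 33.7 and 31.6 CPM in 2D culture. Organoid 3 was the lowest of the organoids, yet above all 2D cultures (1.49 ± 0.31, edgeR adjusted p = 0.0154). Gabarap, its close relative, was almost level among organoids at 471, 474 and 471 CPM, against 363, 379 and 353 CPM in 2D culture. Although these groups did not overlap, Gabarap did not pass (0.37 ± 0.19, edgeR adjusted p = 0.18), and its log2 fold change was -0.24 with total library size. The LC3 gene Map1lc3b, whose product is the standard marker of autophagosomes, had 241, 244 and 284 CPM in organoids and 289, 289 and 283 CPM in 2D culture. Its groups overlapped and it did not pass (-0.16 ± 0.19, edgeR adjusted p = 0.561). Map1lc3a, the other LC3 gene, had 35.5, 61.3 and 52.9 CPM in organoids, against 78.6, 88.1 and 77.6 CPM in 2D culture. All its organoid values lay below 2D culture, but it did not pass (-0.71 ± 0.25, edgeR adjusted p = 0.0781).

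Of the genes of LC3 conjugation, the lipid kinase complex and cargo binding, 1 fell and the others did not pass. Atg5, part of the complex that attaches LC3 to the membrane, had 32.5, 21.3 and 30.4 CPM in organoids, against 51.9, 54.5 and 53.6 CPM in 2D culture. It fell by 0.92 on the log2 scale (SE 0.24, edgeR adjusted p = 0.0281), with no overlap between the groups. Atg7, the activating enzyme of the same machinery, had 39.6, 36.0 and 16.7 CPM in organoids and 21.4, 21.9 and 22.3 CPM in 2D culture. Its organoid libraries lay on both sides of 2D culture and it did not pass (edgeR adjusted p = 0.338). Becn1, a subunit of the lipid kinase complex, had 75.9, 80.4 and 170 CPM in organoids, against 210, 181 and 191 CPM in 2D culture. Organoid 3 came close to 2D culture while the other organoids were far below it, and Becn1 did not pass (-0.83 ± 0.35, edgeR adjusted p = 0.119). Sqstm1, the p62 cargo receptor that is itself degraded by autophagy, had 394, 235 and 335 CPM in organoids and 448, 411 and 437 CPM in 2D culture. All its organoid values were lower, and it did not pass (-0.43 ± 0.25, edgeR adjusted p = 0.24).

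The MiT/TFE regulators took opposite signs. Tfeb, a master regulator of lysosomal genes, had 9.13, 5.11 and 17.4 CPM in organoids 1, 2 and 3, against 1.78, 2.78 and 1.30 CPM in 2D culture. Its levels were low, with 85 to 368 counts per organoid library and 42 to 91 per 2D library, but did not overlap, and Tfeb rose by 2.43 ± 0.64 (edgeR adjusted p = 0.0319). Tfe3, its relative, had 36.5, 24.1 and 44.5 CPM in organoids and 57.7, 53.1 and 57.9 CPM in 2D culture. Each organoid was below each 2D culture, but Tfe3 did not pass (-0.68 ± 0.27, edgeR adjusted p = 0.105).

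Among the lysosomal membrane proteins Mcoln1 fell and Lamp1 and Lamp2 did not pass. Mcoln1, a cation channel that releases calcium from the lysosome, had 28.4, 15.9 and 18.9 CPM in organoids, against 45.3, 42.2 and 35.3 CPM in 2D culture. The groups did not overlap, and the change was -0.96 ± 0.29 at an edgeR adjusted p of 0.0481, just inside the threshold. Lamp1, a main glycoprotein of the lysosomal membrane, had 646, 277 and 330 CPM in organoids and 823, 667 and 593 CPM in 2D culture. Organoid 1 lay within the range of 2D culture and the others far below it (-0.73 ± 0.36, edgeR adjusted p = 0.18). Lamp2, its partner, had 344, 194 and 231 CPM in organoids and 342, 337 and 341 CPM in 2D culture, the same order with organoid 1 on top (-0.41 ± 0.26, edgeR adjusted p = 0.284).

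The calls other than those of Ulk1 and Wipi1 were lost when any 1 of the 2D cultures was left out. Without 2D culture 1, 2 or 3, adjusted p ran from 0.0698 to 0.0862 for Gabarapl1, 0.088 to 0.14 for Tfeb, 0.109 to 0.118 for Atg5, 0.12 to 0.177 for Mcoln1 and 0.101 to 0.12 for Lipa in edgeR, with no change of sign. In those fits 2 members were higher and 0 lower, against 5.34%, 5.79% and 5.25% of genes higher and 2.98%, 3.27% and 3.03% lower (8.32%, 9.06% and 8.28% called). Tfeb and Gabarapl1 also lost their calls with total library size (edgeR adjusted p = 0.075 and 0.0616), and Mcoln1 with RLE size factors, limma-voom, no filter on low counts, and without organoid 2 or 3 (adjusted p = 0.0533 to 0.114). RLE size factors and no filter each gave 4 members higher and 2 lower, against 15.3% and 10% of genes higher and 12.3% and 9.23% lower (27.6% and 19.3% called).

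**Figure D2:**
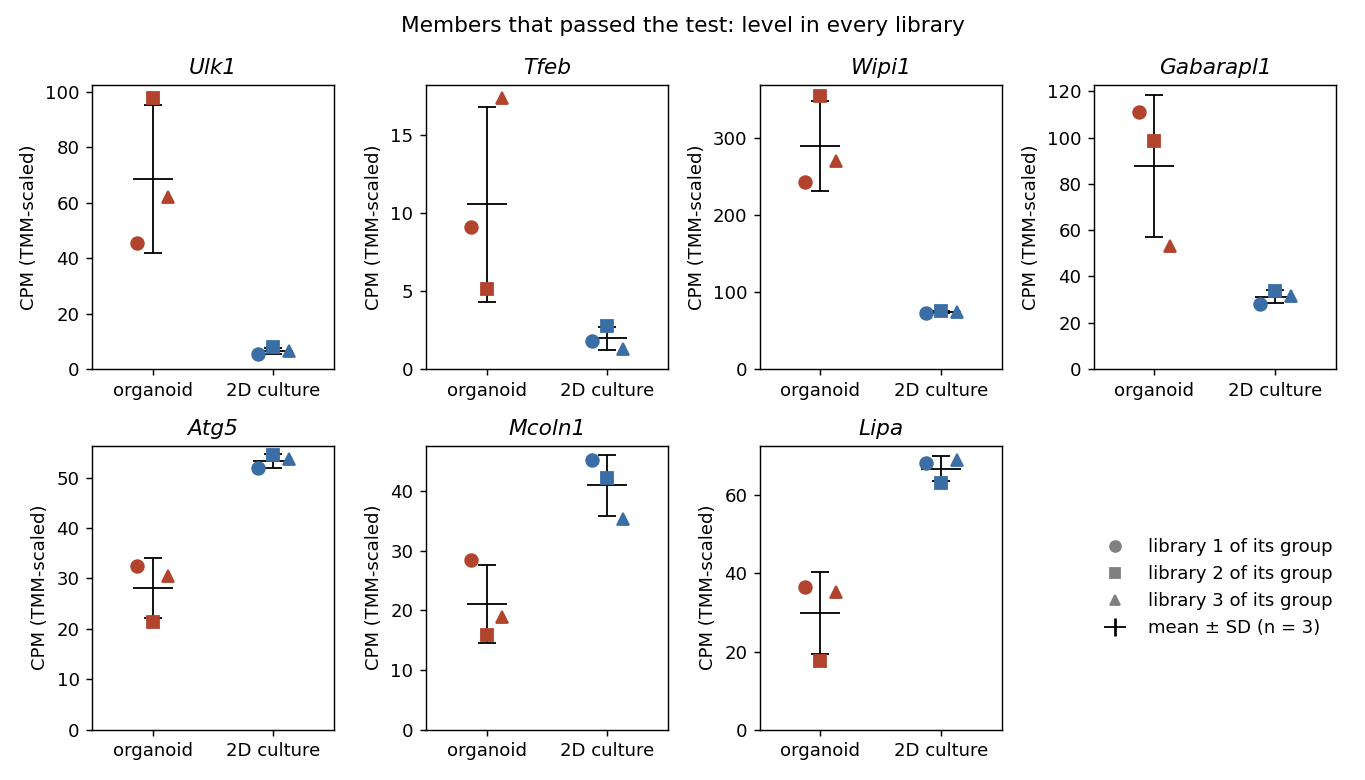
Level in CPM (y axis, from 0) of the 7 members that passed the test, in organoids (red, left) and 2D culture (blue, right); symbols are libraries, and bars mean ± SD of 3 libraries. Ulk1, Tfeb, Wipi1 and Gabarapl1 are higher and Atg5, Mcoln1 and Lipa lower in all organoids than in any 2D culture.

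Because MiT/TFE factors bind the E-box CACGTG, which reads the same on both strands, the promoter windows of the members were searched for these letters. A window ran from 250 bases before to 50 after the gene's start in RefSeq (GRCr8), and 30 of the 35 members had one. The motif stood in 8 of the 30 windows (26.7%), against 9.26% of the windows of tested genes and 6.65% of all genes with a window. It was found in Lamp1 (5 copies), Ctsd and Mcoln1 (2 copies each), Glb1, Sgsh, Idua, Gaa and Atg5. The windows of the 4 members that rose held none, and of the 3 that fell Mcoln1 and Atg5 held it and Lipa did not. The median log2 fold change was -0.03 over the 8 tested members with the motif and -0.21 over the 21 without. Windows are shown for the member with most copies, for both fallen members that hold the motif, and for Gabarapl1 as a risen member without it. The capitals mark CACGTG, and each is written 5′ to 3′ along the gene's strand.
Lamp1 (GRCr8 chr16:83075014-83075313, minus strand): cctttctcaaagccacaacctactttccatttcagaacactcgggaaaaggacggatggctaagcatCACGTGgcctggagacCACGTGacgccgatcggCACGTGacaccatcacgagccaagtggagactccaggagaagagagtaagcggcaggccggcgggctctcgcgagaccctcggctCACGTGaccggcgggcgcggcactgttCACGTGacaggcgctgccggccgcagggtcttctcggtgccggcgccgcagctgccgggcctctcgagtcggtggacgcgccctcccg
Mcoln1 (GRCr8 chr12:6358008-6358307, plus strand): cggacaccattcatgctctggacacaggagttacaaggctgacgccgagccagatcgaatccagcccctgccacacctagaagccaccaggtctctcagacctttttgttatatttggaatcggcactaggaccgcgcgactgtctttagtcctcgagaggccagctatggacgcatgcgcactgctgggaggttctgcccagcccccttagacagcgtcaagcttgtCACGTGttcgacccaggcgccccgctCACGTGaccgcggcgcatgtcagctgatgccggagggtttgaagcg
Atg5 (GRCr8 chr20:49380585-49380884, plus strand): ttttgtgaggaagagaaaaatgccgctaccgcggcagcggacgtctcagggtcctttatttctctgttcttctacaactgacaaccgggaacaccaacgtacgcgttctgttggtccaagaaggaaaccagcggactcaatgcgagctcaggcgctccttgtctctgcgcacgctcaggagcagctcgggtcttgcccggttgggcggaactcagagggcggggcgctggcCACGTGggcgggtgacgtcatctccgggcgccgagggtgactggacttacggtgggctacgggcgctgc
Gabarapl1 (GRCr8 chr4:164666082-164666381, plus strand): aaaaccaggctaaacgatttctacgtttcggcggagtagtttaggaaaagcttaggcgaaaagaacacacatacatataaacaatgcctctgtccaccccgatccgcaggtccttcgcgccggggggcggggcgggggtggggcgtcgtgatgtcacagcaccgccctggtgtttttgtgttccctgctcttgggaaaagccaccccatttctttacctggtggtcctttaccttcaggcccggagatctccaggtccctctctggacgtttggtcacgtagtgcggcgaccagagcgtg
A match is a match of letters only, and a window without one says nothing about sites elsewhere.

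None of the 9 glycosaminoglycan-degrading enzymes passed the test in either direction. At an unadjusted p under 0.05 edgeR gave 3 of these 9, 2 higher and 1 lower, against 5304 of all 13052 genes tested. DESeq2 and limma-voom each called 2 higher (Glb1 and Idua) and 1 lower (Ids). DESeq2 called 36.7% of all genes, 20% higher and 16.7% lower, and limma-voom 28.9%, 14.9% higher and 14% lower. The enzymes fell into higher and lower members by their fitted sign, 4 positive and 5 negative. Idua, the iduronidase that removes iduronic acid from heparan and dermatan sulfate, had 150, 409 and 118 CPM in organoids 1, 2 and 3, against 84.0, 87.2 and 86.2 CPM in 2D culture. All organoids were higher and organoid 2 far above the others (1.40 ± 0.47, edgeR adjusted p = 0.0696). Idua overlaps Slc26a1 and Dgkq in the RefSeq table, so reads of these genes may not be told apart. Dgkq, a diacylglycerol kinase gene, stood at 32.5, 47.2 and 77.8 CPM in organoids and at 23.3 to 26.4 CPM in 2D culture. It did not pass (1.11 ± 0.34, edgeR adjusted p = 0.0542), and its part in the values of Idua was not tested.

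Glb1, the lysosomal beta-galactosidase that acts on keratan sulfate and gangliosides, had 480, 181 and 318 CPM in organoids, against 172, 156 and 164 CPM in 2D culture. Its groups did not overlap, though organoid 2 came close to 2D culture, and it did not pass (0.99 ± 0.36, edgeR adjusted p = 0.0805). Hexa, a subunit of the hexosaminidase that trims sugars from glycosaminoglycans and gangliosides, had 349, 132 and 174 CPM in organoids and 142, 137 and 129 CPM in 2D culture. Organoid 2 fell inside the range of 2D culture (0.68 ± 0.37, edgeR adjusted p = 0.216). Naglu, an enzyme of heparan sulfate breakdown, had 146, 42.4 and 75.7 CPM in organoids, on both sides of the 63.2 to 66.6 CPM of 2D culture (edgeR adjusted p = 0.48).

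Members with a negative fitted change included all 4 sulfatases of the group. Ids, the sulfatase of iduronic acid residues, had 94.4, 58.2 and 82.4 CPM in organoids, against 132, 126 and 131 CPM in 2D culture. All organoids lay below 2D culture, and Ids just missed the threshold (-0.73 ± 0.23, edgeR adjusted p = 0.055). Sgsh, the sulfamidase of heparan sulfate, was at 7.36, 6.91 and 7.003 CPM in organoids and 10.8, 12.2 and 9.53 CPM in 2D culture. Its organoids were the most alike of these enzymes, again all lower, without passing (-0.61 ± 0.35, edgeR adjusted p = 0.231). Sgsh overlaps Slc26a11 and Card14 in the RefSeq table, so reads may not be told apart at this low level. Slc26a11 stood at 12.8, 14.0 and 2.46 CPM in organoids, against 7.99 to 9.13 CPM in 2D culture. Arsb, a sulfatase of chondroitin and dermatan sulfate, had 32.1, 11.1 and 19.9 CPM in organoids, and 29.7, 23.6 and 32.2 CPM in 2D culture. Galns, a sulfatase of keratan and chondroitin sulfate, had 38.2, 34.4 and 15.5 CPM in organoids, against 37.4, 44.5 and 34.7 CPM in 2D culture. Gusb, the glucuronidase, had 79.8, 25.8 and 49.3 CPM in organoids and 66.1, 54.9 and 57.8 CPM in 2D culture. These last 3 enzymes overlapped between the groups and did not pass, at log2 fold changes of -0.44, -0.41 and -0.21.

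No cathepsin passed the test in edgeR, DESeq2 or limma-voom. In edgeR 1 of 5 tested (Ctsl) had an unadjusted p under 0.05, against 5304 of all 13052 genes tested. Cathepsins are the main proteases of the lysosome. Ctsd, the aspartic protease, had 2128, 284 and 836 CPM in organoids 1, 2 and 3, against 597, 592 and 599 CPM in 2D culture. Organoid 2 was below and the other organoids above the 2D cultures, which hardly differed (0.86 ± 0.65, edgeR adjusted p = 0.361). Ctsz, a cysteine carboxypeptidase, ran in the same order with 142, 11.1 and 71.1 CPM in organoids, and had 35.4, 34.1 and 32.7 CPM in 2D culture. Its highest organoid was 12.9-fold above its lowest, against 7.48-fold for Ctsd, and the change of Ctsz was 1.14 ± 0.76 (edgeR adjusted p = 0.31). Ctsb, a cysteine protease, had 1328, 415 and 845 CPM in organoids, around the 892, 817 and 839 CPM of 2D culture. Its fitted change was near 0 (0.02 ± 0.41, edgeR adjusted p = 0.973), with organoids on both sides.

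Ctsa, the carboxypeptidase that also protects beta-galactosidase from degradation, had 763, 229 and 433 CPM in organoids, against 708, 657 and 667 CPM in 2D culture. Again organoid 1 was above and organoid 2 far below 2D culture (-0.51 ± 0.42, edgeR adjusted p = 0.405). Ctsl, a cysteine protease, varied least among the tested cathepsins, with 525, 358 and 399 CPM in organoids and 648, 622 and 600 CPM in 2D culture. All its organoids were lower and it did not pass (-0.55 ± 0.23, edgeR adjusted p = 0.12). Ctss, a cathepsin of antigen-presenting cells, was removed by the low-count filter. It had 9, 0 and 0 counts in organoids, against 0, 6 and 0 counts in 2D culture, and a count of 0 allows up to 0.142 to 0.18 CPM in these organoids and 0.0919 to 0.0929 CPM in these 2D cultures.

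The enzymes of glycogen and lipid breakdown included 1 gene that fell. Lipa, the acid lipase of cholesteryl esters and triglycerides, had 36.4, 17.7 and 35.2 CPM in organoids, against 68.3, 63.2 and 69.1 CPM in 2D culture. It fell by 1.17 on the log2 scale (SE 0.31, edgeR adjusted p = 0.0333), and even the highest organoid was well below 2D culture. Npc1 and Npc2 together move cholesterol out of the lysosome. Npc2, the soluble partner, had 172, 127 and 169 CPM in organoids and 227, 229 and 215 CPM in 2D culture, and Npc1, the membrane protein, had 29.3, 44.6 and 41.1 CPM in organoids and 23.9, 30.4 and 22.1 CPM in 2D culture. Npc2 was lower in all organoids while Npc1 overlapped, and neither passed (edgeR adjusted p = 0.102 and 0.141). Npc1 overlaps Rmc1, which fell by 2.07, and Ctsz overlaps Nelfcd in the RefSeq table. Nelfcd, called higher by 0.87 (edgeR adjusted p = 0.0273), stood at 71.4, 108 and 96.3 CPM in organoids and 47.9 to 51.8 CPM in 2D culture. Ctsa overlaps Neurl2 and Pltp, and Pltp stood at 117 to 203 CPM in organoids and 84.2 to 93.8 CPM in 2D culture. The parts of these genes in the members' values were not tested. Gaa, which degrades glycogen, had 498, 173 and 310 CPM in organoids, against 229, 208 and 229 CPM in 2D culture. Gla, an alpha-galactosidase of glycolipids, had 31.0, 9.49 and 30.6 CPM in organoids and 32.3, 30.0 and 29.4 CPM in 2D culture. In both genes organoid 2 lay below 2D culture, and neither passed (edgeR adjusted p = 0.315 and 0.578).

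Among the 6 role groups, the cathepsins had the highest median ratio between organoids. Organoid 2 was the lowest organoid for 23 of 34 members (67.6%), against 38.3% of all genes tested. This held for 5 of 5 tested cathepsins, 7 of 9 glycosaminoglycan-degrading enzymes and 3 of 3 membrane proteins, but for 2 of 10 autophagy genes. Organoid 2 was the highest for 4 of 10 autophagy genes, against 37.7% of all genes. Organoid 1 was the highest for 24 of 34 members, against 4347 of all 13052 genes tested. The order was not particular to the members. Over the 131 tested genes of the further lists below, organoid 2 was the lowest for 69 (52.7%) and organoid 1 the highest for 75. Summed over the 6 cathepsins, the level was 4886, 1297 and 2583 CPM in organoids 1, 2 and 3, against 2722 to 2880 CPM in 2D culture. Summed over the 10 autophagy genes it was 1689, 1705 and 1747 CPM in organoids, against 1529 to 1568 CPM in 2D culture. With TMM scaling, the summed autophagy transcripts thus differed little among organoids in which the summed cathepsin transcripts spanned a wide range. The likeness depends on that scaling: the TMM factor was 0.662, 0.896 and 0.877 in organoids 1, 2 and 3, and 1.23 to 1.27 in 2D culture. Scaling to total library size would lower the sums of organoid 1 relative to the other organoids, and those of all organoids relative to 2D culture. The median ratio of the highest to the lowest organoid was 3.33 for cathepsins, 2.65 for glycosaminoglycan-degrading enzymes and 1.70 for autophagy genes, against 2.55 over all genes tested. In 2D culture the same medians were 1.08, 1.10, 1.08 and 1.20.

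Results of several hydrolases changed when organoid 2 was left out. Without organoid 2, 11 members were higher and 5 lower, against 20.5% and 19.2% of the genes then tested (39.6% called, and 27.5% with all libraries). Glb1 then rose by 1.33, Hexa by 0.99, Idua by 0.69, Ctsd by 1.36, Ctsz by 1.70 and Gaa by 0.91, at edgeR adjusted p of 0.00623, 0.0482, 0.0155, 0.0403, 0.0107 and 0.0258. In the same fit Gabarap also passed as higher, and Ids, Npc2 and Map1lc3a passed as lower. Organoid 2 was the lowest organoid for Glb1, Hexa, Ctsd, Ctsz and Gaa, so leaving it out raised their organoid mean. For Idua organoid 2 was the highest organoid, and the change of Idua was smaller than the 1.40 found with all libraries. Idua also passed without organoid 3 (edgeR adjusted p = 0.0327), and Glb1 and Idua passed with DESeq2 and limma-voom. Without organoid 1, 5 members were higher and 7 lower, against 17.1% and 17.1% of genes (34.2% called), and the log2 fold change of Ctsd was -0.057. Ids, Ctsl, Lamp1 and Lamp2 then passed as lower, and Npc1 as higher. Without organoid 3, 6 members were higher and 4 lower, against 18.2% and 17.3% of genes (35.5% called). With the replicate block 3 were higher and 1 lower, against 11% and 9.88% of genes (20.9% called). The summed chondrocyte markers (Sox9, Col2a1, Acan, Matn1, Col9a1, Comp, Hapln1 and Col10a1) were 99970, 10267 and 31193 CPM in organoids 1, 2 and 3, the same order as the summed cathepsins, against 1499 to 1601 CPM in 2D culture. Their part in the spread of the hydrolases was not tested.

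**Figure D3:**
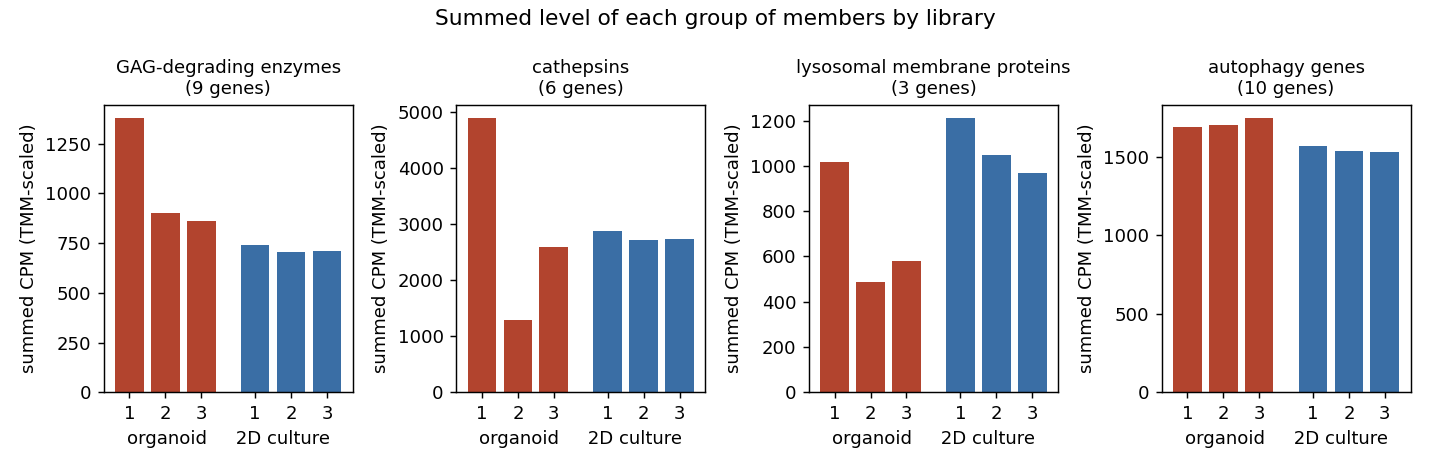
Summed CPM (y axis, from 0) of 4 groups of members in each library, organoids in red on the left and 2D cultures in blue on the right of each panel. With TMM scaling, on which the likeness of the autophagy sums depends, the cathepsins span 1297 to 4886 CPM among organoids and the autophagy genes 1689 to 1747 CPM.

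Macrophages and osteoclasts are rich in lysosomal proteases, so their markers were read beside the members. The 14 macrophage markers in the files summed to 66.3, 42.7 and 18.6 CPM in organoids, against 7.83 to 10.7 CPM in 2D culture. Most of the organoid sum came from Csf1r (32.5, 16.7 and 0.142 CPM), Cd14 (18.6, 21.99 and 10.4 CPM) and Lyz2 (11.6, 2.70 and 6.01 CPM). Lyz2 was called higher in organoids (3.96 ± 1.03, edgeR adjusted p = 0.0309), and Cd14 did not pass (edgeR adjusted p = 0.0863). Csf1r, with 551, 278 and 3 counts in organoids and 5, 0 and 9 in 2D culture, was removed by the low-count filter. The defining leukocyte gene Ptprc had 1, 0 and 3 counts in organoids and 0 counts in 2D culture, and Adgre1 had 0 counts in all 6 libraries. The 7 osteoclast markers in the files summed to 399, 413 and 227 CPM in organoids, against 159 to 162 CPM in 2D culture. Ctsk, the collagen-degrading cathepsin of osteoclasts, had 165, 196 and 87.9 CPM in organoids and 134 to 137 CPM in 2D culture and did not pass (edgeR adjusted p = 0.773). The osteoclast receptor Tnfrsf11a had 0 counts in organoids, and Oscar and Mmp9 were not called. The other 3 osteoclast markers were called higher in edgeR: Acp5, the tartrate-resistant acid phosphatase, by 3.501 (adjusted p = 0.0174), Nfatc1, a transcription factor, by 3.23 (adjusted p = 0.00139) and Itgb3, an integrin subunit, by 2.08 (adjusted p = 0.0322). Acp5 stood at 99.0, 23.2 and 14.8 CPM in organoids, against 3.55 to 4.35 CPM in 2D culture. The 6 endothelial markers summed to 0.0946 to 3.59 CPM in organoids and 0.52 to 0.805 CPM in 2D culture. The parts of these markers in the members' values were not tested.

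Further genes of these pathways were called about as often as genes in general. Of 131 tested in 9 further lists, 19 rose and 17 fell (14.5% and 13%), against 14.9% and 12.6% of all genes tested. The lists hold 9 to 27 tested genes each, so their single counts are given as descriptions beside that same background. Autophagy receptors link cargo to LC3. Of 10 receptors 4 rose (40%) and 1 fell (10%), Tax1bp1. The mitophagy receptor Bnip3 had 1708, 793 and 1562 CPM in organoids, against 45.2, 41.6 and 41.1 CPM in 2D culture, a change of 4.99 ± 0.38 (edgeR adjusted p = 0.000559). Every organoid was far above 2D culture. Its relative Bnip3l rose by 2.28 ± 0.21 and Calcoco1, a receptor for parts of the endoplasmic reticulum and Golgi, by 2.11 ± 0.20. Of 27 other core autophagy genes 4 rose (14.8%) and 1 fell (3.7%), with Ulk2, the kinase related to Ulk1, up by 1.58 ± 0.37, Epg5, a tether for fusion with the lysosome, up by 1.504 ± 0.33, and Atg2a, a lipid transfer protein, up by 1.17 ± 0.31.

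Of 10 further genes of glycosaminoglycan breakdown, 3 rose (30%) and 2 fell (20%). Hpse, the heparanase that cuts heparan sulfate within its chain, had 53.6, 31.2 and 33.4 CPM in organoids, against 6.68, 8.01 and 6.90 CPM in 2D culture (2.45 ± 0.31, edgeR adjusted p = 0.00278). Cemip, which takes part in hyaluronan breakdown, rose by 1.36 ± 0.20, and its relative Cemip2 by 1.25 ± 0.28. The hyaluronidase gene Hyal2 went the other way, with 28.5, 13.6 and 29.2 CPM in organoids, against 59.2, 48.4 and 52.1 CPM in 2D culture. It fell by 1.16 on the log2 scale (SE 0.33, edgeR adjusted p = 0.0423). All organoids were above 2D culture in Hpse and Cemip. Sumf1, which activates all sulfatases by modifying their active site, had 58.3, 13.4 and 38.0 CPM in organoids, against 139, 110 and 114 CPM in 2D culture. It fell by 1.73 on the log2 scale (SE 0.50, edgeR adjusted p = 0.0431).

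Among 9 tested genes of other cathepsins, legumain and cystatins, 1 rose (11.1%) and 2 fell (22.2%), and all 3 were inhibitors of cysteine cathepsins rather than proteases. Cystatin C, Cst3, had 2002, 1411 and 794 CPM in organoids, against 137, 145 and 139 CPM in 2D culture (3.32 ± 0.38, edgeR adjusted p = 0.00213). Cstb, the cytosolic cystatin B, fell by 1.63 on the log2 scale. Cst6 had 3 counts in all organoids together and 2D levels of 3.06 to 3.95 CPM.

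Of 18 other hydrolases and activators, 3 rose (16.7%) and 1 fell (5.56%). Manba, the beta-mannosidase, rose by 1.96 ± 0.35, Plbd2, a lysosomal phospholipase B-like protein, by 1.58 ± 0.22, and the acid phosphatase Acp2 fell by 1.43 on the log2 scale. Of 17 proton pump (V-ATPase) subunits 3 fell (17.6%) and 14 did not pass, with Atp6v0b down by 1.07, Atp6v1d by 1.01 and Atp6v1c1 by 0.79 on the log2 scale. Of 14 other membrane proteins and transporters 3 fell (21.4%), namely the cystine exporter Ctns by 1.70, the chloride exchanger Clcn7 by 1.03 and the tetraspanin Cd63 by 0.78. In mannose 6-phosphate sorting, which brings hydrolases to the lysosome, 2 of 9 rose and 2 fell (22.2% each). The sorting receptor Sort1 rose by 1.19 ± 0.24 and the adaptor Gga3 by 1.27 ± 0.23, while Nagpa, which uncovers the mannose 6-phosphate signal, fell by 1.87 on the log2 scale. Of 17 genes of nutrient sensing at the lysosome 2 rose and 2 fell (11.8% each), with Fnip1, a folliculin partner, up by 1.04 ± 0.23 and Lamtor1, the anchor of the Ragulator complex, down by 1.22. Rragd, a Rag GTPase gene, rose to 0.766, 1.92 and 0.804 CPM in organoids, over 1 count in all of 2D culture.

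The counts over these lists moved with the fit, as did those over all genes. Total library size gave 9 higher and 40 lower, against 8.14% and 27% of all genes. Leaving out 2D culture 1, 2 or 3 gave 8, 7 and 7 higher and 1 lower each, against 5.34%, 5.79% and 5.25% of all genes higher and 2.98%, 3.27% and 3.03% lower. Leaving out organoid 2 gave 33 higher and 26 lower, against 20.5% and 19.2% of all genes. Bnip3, Bnip3l, Calcoco1, Hpse, Cemip, Cst3, Plbd2 and Acp2 kept their calls in all 12 alternatives, and each other gene of these lists named as risen or fallen lost its call in at least 1 of them.

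**Figure D4:**
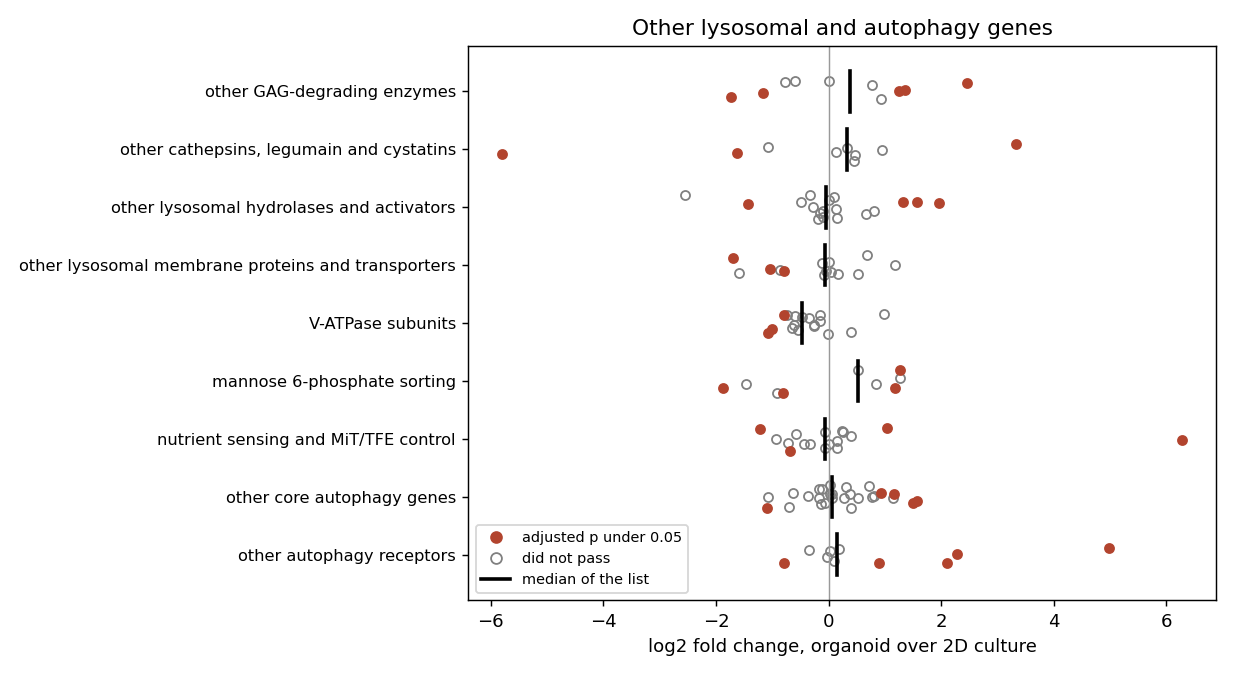
Log2 fold change of organoid over 2D culture (x axis) for the tested genes of 9 further lists (rows); filled red points passed the test, open grey points did not, and black bars are list medians. The outermost points are Rragd at 6.27 and Cst6 at -5.79, each with very few counts in a group. Bnip3 at 4.99 and Cst3 at 3.32 also lie far to the right, and most points lie between -1 and 1.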

How the data were processed

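Total RNA was extracted with Trizol and mRNA libraries were made for the DNBSEQ platform, per the labels' protocols. RSEM, Bowtie2, HISAT, HISAT2 and DESeq2 are listed in the submitters' processing notes without roles or versions. Genome build, annotation and strand: not given in the sources used here. The authors deposited an estimated count per gene (RSEM is named in the submitters' processing notes), 1 table per library, not normalised, with 1846 to 2501 fractional values per library. Fractional values occur where reads are shared; 10 members have one.

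Counts were rounded, filtered with filterByExpr (minimum count 10), scaled by TMM (factors 0.662 to 0.896 in organoids, 1.23 to 1.27 in 2D culture) and tested with edgeR 4.0.16 (robust quasi-likelihood F-test, Benjamini-Hochberg) in R 4.3.3. Each SE was taken as |log2 fold change| divided by √F. Limits from a count of 0 use 3 counts and cover counting error only. The steps were tested on counts simulated with a single spread per gene for both groups. That setting differs from the unequal spreads given below, so it cannot show how the p-values behave under them. Replicates of a group differed by more than sampling noise. The chi-square per degree of freedom was 9.18 to 19.2 between 2D cultures and 192 to 423 between organoids. The edgeR test used a single spread per gene over both groups, so its p-values average these unequal spreads. Alternatives were other scalings, DESeq2 1.42.0, limma-voom (limma 3.58.1) with a weight per group, no filter, the replicate number as a block, and each library left out. Promoter windows come from RefSeq (GRCr8), whose gene table held all 35 members and in which 15 overlap another gene.

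Members and lists were chosen with earlier results of these data known. Every member is given; from each further list the 3 called genes changed most (at least 1 CPM in the higher group) are named, and others named there were chosen after their values were seen.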

Additional observations from a re-analysis of the deposited data

How the results depend on the processing

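Of 408 log2 fold changes of the 34 tested members under 12 alternatives, 326 kept sign and side of the threshold, 25 lost a call, 41 gained one and 16 changed sign. The 16 belong to members that did not pass: with total library size Hexa (-0.018), Naglu (-0.27), Ctsb (-0.67), Gaa (-0.13), Atg7 (-0.16) and Gabarap (-0.24); without organoid 1 Naglu (-0.11), Ctsb (-0.40) and Ctsd (-0.057); without organoid 2 Gusb (0.16) and Gla (0.058); and Ctsb also with limma-voom (-0.13), the replicate block (-0.13), no filter (-0.0202), without 2D culture 2 (-0.018) and without 2D culture 3 (-0.0021). Leaving out 1 library gave ranges of -0.64 to 0.16 for Gusb, -0.11 to 0.82 for Naglu, -0.40 to 0.40 for Ctsb, -0.057 to 1.36 for Ctsd and -0.60 to 0.058 for Gla.

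Counts of higher and lower members were 2 and 16 with total library size and 7 and 5 with DESeq2. Leaving out 1 library gave 2 to 11 higher and 0 to 7 lower. Among glycosaminoglycan-degrading enzymes, 2 were higher and 1 lower with DESeq2 and with limma-voom, 3 were lower with total library size, and leaving out 1 library gave 0 to 3 higher and 0 to 1 lower. For cathepsins total library size gave 2 lower, and leaving out 1 library 0 to 2 higher and 0 to 1 lower. For autophagy genes 5 were lower with total library size, 2 with DESeq2 and 2 with limma-voom, and 0 to 2 when 1 library was left out. Genes called over the whole table ranged from 1109 to 5321 when 1 library was left out, falling without any 2D culture and rising without any organoid. The cause of these shifts was not tested. The median log2 fold change of all genes moved by -0.61 with total library size, by -0.21 with limma-voom and by -0.18 with the block.

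The correlation of deviations from the group means was 0.0606, 0.187 and 0.0207 for same-numbered libraries 1, 2 and 3. Between differently numbered libraries it was -0.135 to 0.0698. With 3 libraries per group these values cannot decide whether same-numbered libraries were paired. With the replicate number as a block 2730 genes were called against 3594, 3 members were higher and 1 lower, 0 autophagy genes were lower, and Tfeb, Atg5 and Mcoln1 lost their calls (edgeR adjusted p = 0.102, 0.0656 and 0.0677). Ctss, with at most 9 counts in a library, was removed by the low-count filter and entered only the fits with DESeq2 and with no filter, neither of which called it.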
